A study of Homo sapiens with 4 samples.

Results

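ROBO1, EPHB3, UNC5A and CNTN2 were followed through the TRAP libraries of the hPSC-derived ATOH1 lineage as 4 named genes, 3 receptors for axon guidance cues and 1 axonal adhesion molecule, out of 43573 genes and transcripts tested. TRAP (translating ribosome affinity purification) recovers mRNAs that are attached to a tagged ribosome. The 3 immunoprecipitates (IPs), each from a differentiation of its own, were compared with 1 input library, which the study also calls unbound. Both kinds of library were made at DIV28 from RUES2 human embryonic stem cells that carried the ATOH1-EGFP-L10a transgene, in which an ATOH1 enhancer drives an EGFP-tagged ribosomal protein delivered by lentivirus to clonally selected lines. By the study's protocol all cells received SB431542 and LDN-193189, CHIR99021, FGF2, BMP7 and BDNF during differentiation. As described there, the input carries the transgene and the treatment as the IPs do. Which culture the input came from is not stated. The IPs were taken with the GFP antibodies 19C8 and 19F7.

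Growing axons read attractive and repulsive cues through receptors on the growth cone. ROBO1 binds the secreted Slit proteins and EPHB3 is a receptor tyrosine kinase for membrane-bound ephrin-B ligands. UNC5A binds netrin, for which receptors of its family mediate repulsion. CNTN2 encodes TAG1, a GPI-anchored adhesion molecule that in the mouse cerebellum marks early postmitotic granule neurons as they extend their axons.

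The sample that GEO labels as input and the file that carries the tag in that sample's title are different libraries. Taking the tagged library as input rebuilt 306 of 1398 searched genes of the study's gene table from single transcripts, against 1, 1 and 2 with IP 1, 2 or 3 as input, and this library is called the input here. IP 1 is the library labelled input. All IP libraries share a tag and the input carries another. What the tag stands for is not stated, so any difference tied to it cannot be told apart from that of IP against input. ATOH1, whose enhancer drives the tag, measured 26.1, 36.0 and 33.2 CPM (counts scaled to library size, with TMM factors) in IP 1, 2 and 3, against 0.173 CPM in the input, where it rested on 7 reads. GAPDH measured 1380, 1491 and 1663 CPM in the IPs, against 2702 CPM in the input. Library totals were 34603230 to 37719839 estimated reads in the IPs and 41173019 in the input. All 5 genes listed under granule cell progenitors and rhombic lip and all 6 listed under young neurons were higher in the IPs. Of 6 vascular and mesenchymal markers tied to a transcript, 4 were lower. Over all genes tied to transcripts, 28.8% were higher and 28.0% lower. The directions of the 4 genes turn with the labels' assignment, under which edgeR called 0 genes and transcripts (1032 higher and 229 lower when p under 0.05 was left unadjusted) and 1 of 27 axon guidance genes, GAP43, kept its direction.

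The 4 genes lie on 3 chromosomes, and coordinates are those of GENCODE on GRCh37, the build of the authors' transcripts. ROBO1 spans chr3:78646389-79817148 on the minus strand and EPHB3 spans chr3:184279573-184300196 on the plus strand. UNC5A spans chr5:176237520-176307899 and CNTN2 spans chr1:205012065-205047417, both on the plus strand. All are protein-coding, and 7 transcripts of ROBO1, 3 of CNTN2 and 1 each of EPHB3 and UNC5A were joined and had reads. Because the lineage is selected by an enhancer of ATOH1, a basic helix-loop-helix factor of the class that binds E-boxes (CANNTG), the 250 bases before 5 of their starts in RefSeq (GRCh38.p14) are shown 5′ to 3′ with E-boxes in capitals. The motif reads the same on both strands. All 4 genes matched, with 6 starts. The second start of CNTN2 (window chr1:205042962-205043211, with 1 E-box) lies just downstream of the first and is not shown. The windows printed are chr3:79767999-79768248 and chr3:79019460-79019709 (minus strand) for the starts of ROBO1, chr3:184561535-184561784 for EPHB3, chr5:176810309-176810558 for UNC5A and chr1:205042699-205042948 for CNTN2.
ROBO1, start at the far 5′ end: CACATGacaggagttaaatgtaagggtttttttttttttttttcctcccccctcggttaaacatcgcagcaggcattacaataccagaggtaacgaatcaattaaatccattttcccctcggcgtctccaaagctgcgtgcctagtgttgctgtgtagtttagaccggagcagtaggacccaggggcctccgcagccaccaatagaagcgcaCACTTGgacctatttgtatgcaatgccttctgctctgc
ROBO1, start within the gene: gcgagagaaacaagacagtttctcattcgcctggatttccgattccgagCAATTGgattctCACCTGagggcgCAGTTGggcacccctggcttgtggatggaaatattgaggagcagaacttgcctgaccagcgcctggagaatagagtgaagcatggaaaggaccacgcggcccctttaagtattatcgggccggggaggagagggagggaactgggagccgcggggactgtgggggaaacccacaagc
EPHB3: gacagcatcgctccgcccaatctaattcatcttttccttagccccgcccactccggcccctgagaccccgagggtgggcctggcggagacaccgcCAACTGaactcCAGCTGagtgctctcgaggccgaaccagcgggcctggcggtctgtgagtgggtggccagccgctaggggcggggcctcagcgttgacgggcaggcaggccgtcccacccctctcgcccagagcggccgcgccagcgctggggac
UNC5A: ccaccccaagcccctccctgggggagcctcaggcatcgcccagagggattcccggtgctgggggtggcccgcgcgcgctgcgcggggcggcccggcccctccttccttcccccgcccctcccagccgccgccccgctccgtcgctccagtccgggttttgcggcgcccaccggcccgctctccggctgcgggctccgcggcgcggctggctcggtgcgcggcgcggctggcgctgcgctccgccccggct
CNTN2: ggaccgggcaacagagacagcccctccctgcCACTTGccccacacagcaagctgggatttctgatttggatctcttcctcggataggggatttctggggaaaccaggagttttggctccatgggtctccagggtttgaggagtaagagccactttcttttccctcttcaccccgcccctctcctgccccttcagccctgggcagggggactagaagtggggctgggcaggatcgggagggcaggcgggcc
The windows held 2 and 3 E-boxes at the starts of ROBO1, 2 at EPHB3, 0 at UNC5A and 1 at the first start of CNTN2. Of 35116 windows of this length, 61.8% held at least 1 and 10.4% held 3 or more. These counts describe the letters of the windows and nothing further.

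In the IPs the 4 genes stood at nearly the same level, and in the input they split into a high and a low pair. Levels between genes are given as TPM, which scales for transcript length. ROBO1 was at 11.4, 10.0 and 8.33 TPM in IP 1, 2 and 3, against 56.2 TPM in the input. EPHB3 was at 10.4, 9.81 and 8.55 TPM in the IPs, against 57.3 TPM in the input. UNC5A was at 10.7, 8.26 and 6.84 TPM in the IPs, against 0.681 TPM in the input, and CNTN2 was at 10.7, 9.75 and 6.99 TPM in the IPs, against 0.467 TPM in the input. The highest of the 4 exceeded the lowest by 1.09, 1.21 and 1.25 times within IP 1, 2 and 3, and by 123 times within the input. The IP ranges of all 4 overlapped, so their order in the IPs was not resolved beyond the spread between libraries. In these bulk libraries, fewer cells of a type, less RNA per cell and less attachment of an mRNA to the tagged ribosome cannot be told apart.

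**Figure D1:**
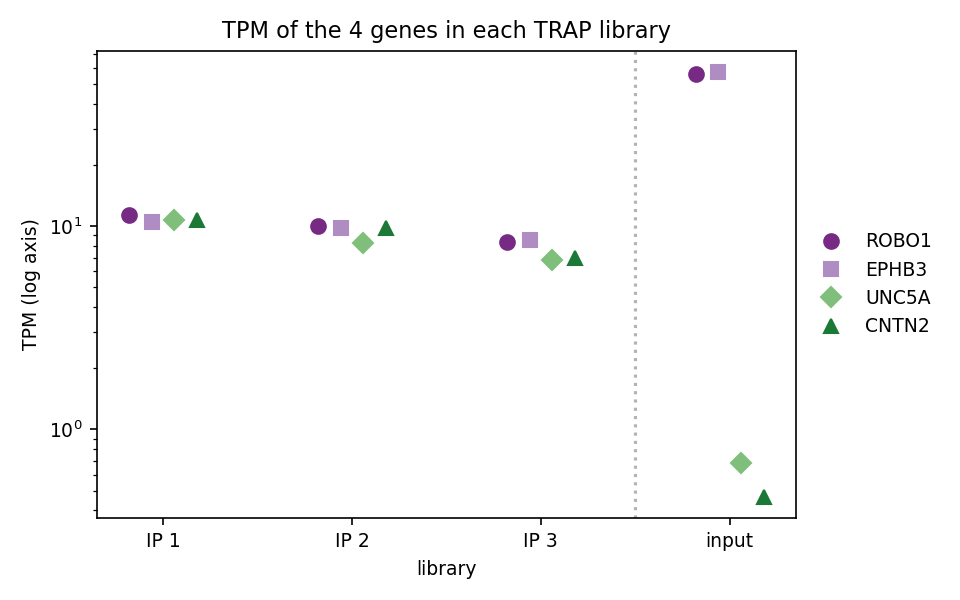
TPM of ROBO1, EPHB3, UNC5A and CNTN2 on a log axis in each of the 3 IP libraries and the 1 input library (1 point per gene and library). All points of the IPs lie between 6.84 and 11.4 TPM, while in the input ROBO1 and EPHB3 lie above 50 and UNC5A and CNTN2 below 1.

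Ratios between 2 genes of the same library do not depend on how libraries are scaled to each other. The log2 TPM ratio of ROBO1 to CNTN2 was 0.09, 0.04 and 0.25 in the IPs, against 6.91 in the input. That of EPHB3 to UNC5A was -0.04, 0.25 and 0.32 in the IPs, against 6.39 in the input. ROBO1 to UNC5A averaged 0.21 ± 0.11 in the IPs (SD, n = 3) against 6.37 in the input, and EPHB3 to CNTN2 averaged 0.09 ± 0.18 (SD, n = 3) against 6.94. Each input ratio lay far outside the spread of the IPs, while the input's own spread is unknown. Each pair sets a gene lower in the IPs over one higher there, so a shift followed from the choice of pairs. Within the pair lower in the IPs, ROBO1 to EPHB3 was 0.04 ± 0.08 on this scale (SD, n = 3) in the IPs and -0.03 in the input, a difference smaller than the spread. CNTN2 to UNC5A was 0.09 ± 0.13 (SD, n = 3) in the IPs and -0.54 in the input, where the values rest on 98 and 67 reads.

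The receptor genes ROBO1 and EPHB3 fell in the IPs to 0.195 and 0.211 times the input by CPM. ROBO1 measured 54.1, 52.5 and 46.9 CPM in IP 1, 2 and 3, against 262 CPM in the input. The IP mean was 51.1 ± 3.80 CPM (SD, n = 3). The log2 fold change was -2.36 with a standard error of 0.13 (adjusted p = 0.0184, edgeR's quasi-likelihood test). EPHB3 measured 35.1, 34.0 and 31.3 CPM in the IPs, against 159 CPM in the input. The IP mean was 33.5 ± 1.93 CPM (SD, n = 3). Its log2 fold change was -2.25 with a standard error of 0.13 (adjusted p = 0.0195, edgeR's quasi-likelihood test). For both genes the 3 IPs lay close together and all below the input.

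UNC5A and CNTN2 rose in the IPs, by over 10 times. UNC5A measured 31.7, 25.1 and 22.0 CPM in IP 1, 2 and 3, against 1.66 CPM in the input. The IP mean of 26.2 ± 4.94 CPM (SD, n = 3) was 15.8 times the input, with bounds of 12.5 and 20.4 from the 95% Poisson interval of the 67 input reads. The log2 fold change was 3.98 (standard error 0.39, adjusted p = 0.0319, edgeR's quasi-likelihood test). CNTN2 measured 67.3, 62.6 and 47.8 CPM in the IPs, against 2.42 CPM in the input. The IP mean of 59.2 ± 10.1 CPM (SD, n = 3) was 24.4 times the input, with bounds of 20.1 and 30.1 from its 98 input reads. The log2 fold change was 4.61 (standard error 0.34, adjusted p = 0.0236, edgeR's quasi-likelihood test). The IPs of both genes lay all above the input, and their highest and lowest values fell in IP 1 and IP 3, as they did for ROBO1 and EPHB3. These bounds allow for counting error alone, as the reads carry no molecular identifiers.

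**Figure D2:**
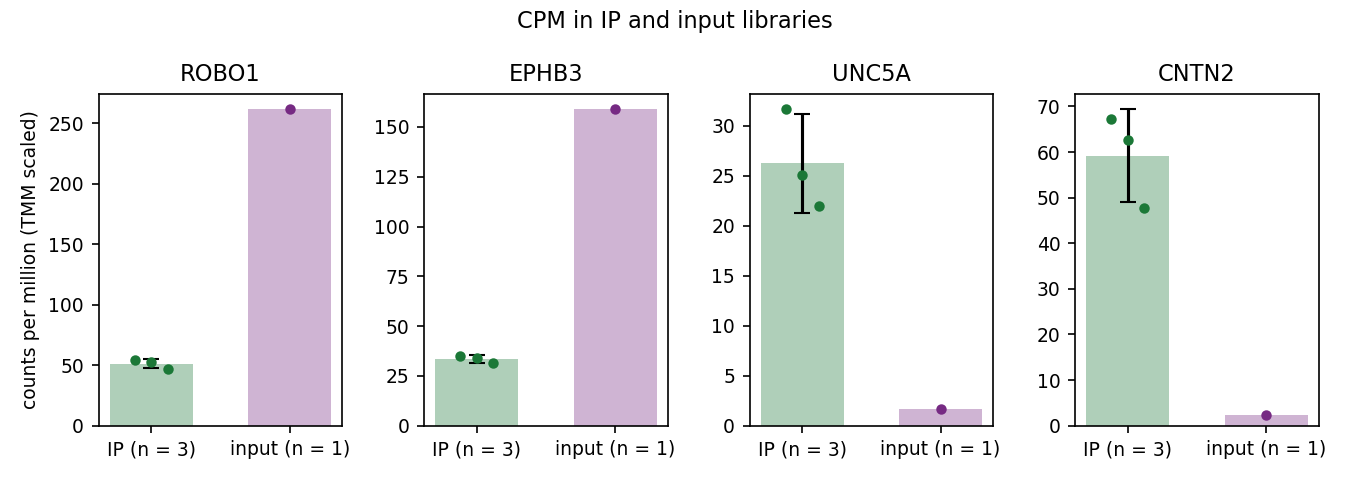
CPM (TMM scaled) of the 4 genes in the IPs (bar at the mean, error bar 1 SD, n = 3, points for libraries) and the input (n = 1), each gene on its own linear axis from 0. ROBO1 and EPHB3 reach input levels of 262 and 159 CPM, and UNC5A and CNTN2 reach 1.66 and 2.42.

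Over all genes and transcripts tested, 2.32% passed the test as higher and 1.50% as lower, and all 3 IPs lay above the input for 28.2% and below it for 33.4%. Among the 1738 genes that could be named, which the study itself had called on these libraries, 28.8% passed as higher and 28.0% as lower, so the direction of the 4 genes is not independent of the study. The test takes its spread from the IPs and assumes that the single input varies like them, and an exact permutation test of 3 against 1 could not go below a one-sided p of 0.25. Without any 1 IP library no call remained (adjusted p 0.106 to 0.193, edgeR's quasi-likelihood test), and with the labels' assignment the log2 fold changes were 1.15 for ROBO1, 1.09 for EPHB3, -0.96 for UNC5A and -0.84 for CNTN2 (adjusted p = 1.00 for each).

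The lower level of ROBO1 was not shared by all its transcripts. The files give an identifier and a length for each, and Salmon divides reads that transcripts share, so the split is an estimate and no transcript was tied to exons or to a start. The transcript of 5598 bases had 1383, 901 and 708 estimated reads in IP 1, 2 and 3 and 148 in the input, which is 8.52, 5.23 and 3.88 TPM in the IPs, against 0.979 TPM in the input. All 3 IPs were above the input, opposite to the gene. Its log2 fold change was 2.91 (standard error 0.56). It did not pass edgeR's quasi-likelihood test over 46762 transcripts, each taken on its own (adjusted p = 0.0830). In contrast, DESeq2 gave an adjusted p of 6.02e-08, limma-voom 0.196, and leaving out 1 IP 0.122 to 0.232. In that fit 1.95% passed as higher and 1.10% as lower.

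The other 6 transcripts of ROBO1 together had 2.85, 4.78 and 4.45 TPM in IP 1, 2 and 3, against 55.2 TPM in the input, 13.7 times the IP mean. The transcript of 7329 bases, at 2.24, 1.95 and 2.67 TPM in the IPs, against 13.9 TPM in the input, passed the test as lower (log2 difference -2.26, standard error 0.26, adjusted p = 0.0418, edgeR's quasi-likelihood test). The transcript of 7494 bases had 6.3e-05, 0.421 and 0.00848 TPM in the IPs and led in the input at 25.7 TPM (adjusted p = 0.148 by the same edgeR test). The transcript of 6839 bases varied widely among the IPs, at 0.175, 2.26 and 1.61 TPM, against 10.1 TPM in the input (adjusted p = 0.375, edgeR). The transcript of 3641 bases had 0 estimated reads in each IP and 485 in the input (adjusted p = 0.0842, edgeR). As shares of the gene's estimated reads, the 5598-base transcript took 71.4%, 46.5% and 40.9% in the IPs, against 1.40% in the input. This transcript was needed to rebuild the gene's row in the study's table, since without it the IP mean of estimated reads would be 0.0836 times the input, a fold change that the row does not have.

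**Figure D3:**
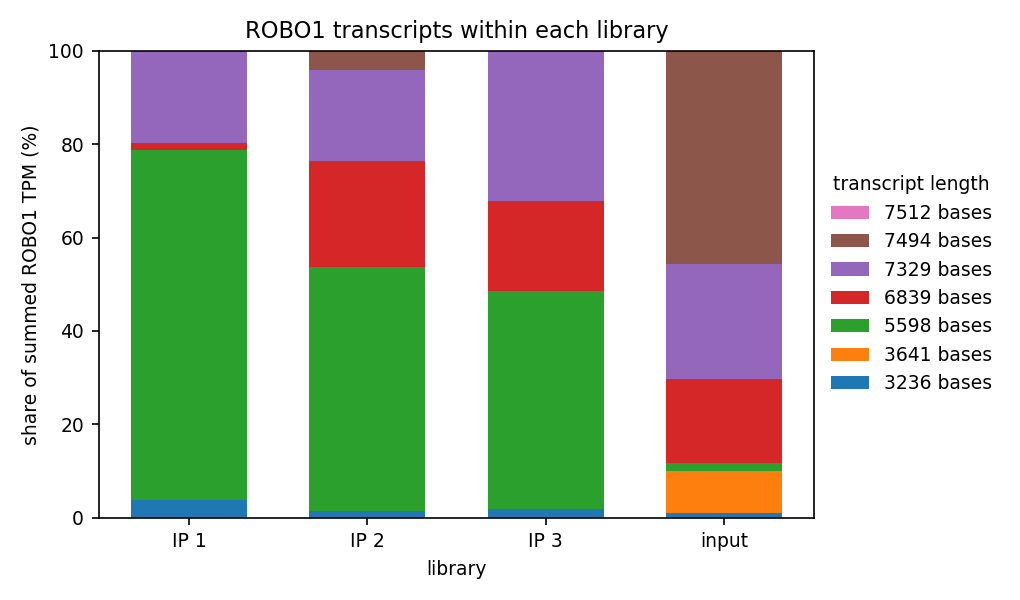
Share of the summed ROBO1 TPM (%) taken by each of its 7 transcripts, named by length, in IP 1 to 3 and the input (stacked bars). The 5598-base transcript fills much of each IP bar and little of the input bar, where the 7494-base transcript is the largest part.

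Such a transcript was not particular to ROBO1. Of 398 joined genes called lower with 2 or more tested transcripts, 104 (26.1%) held one with at least 100 estimated reads on average in the IPs and at least 2-fold higher there, ROBO1 and 4 other axon guidance genes (CNTN1, NRP2, SEMA3C and SEMA6D) among them. The mirrored case, which asks for at least 100 estimated reads in the single input, was found in 11 of 322 genes called higher (3.4%). Genes with few input reads, such as CNTN2 with 98, could not meet it, so these shares cannot be compared. In CNTN2 the transcript of 7670 bases carried 98.6%, 78.8% and 99.4% of the gene's estimated reads in IP 1, 2 and 3 and 100.0% in the input. It passed the test on its own with a log2 fold change of 4.49 and a standard error of 0.35 (adjusted p = 0.0291, edgeR's quasi-likelihood test). The transcript of 7393 bases was assigned 34.1, 489 and 10.2 estimated reads in the IPs and 0 in the input. It did not pass (adjusted p = 0.319, edgeR's quasi-likelihood test). As Salmon divides shared reads, the larger assignment in IP 2 is an estimate and does not show a separate form there. EPHB3 and UNC5A were each matched by 1 transcript.

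The wider list of axon guidance genes held 117 genes, of which 27 could be tied to transcripts (joined). The test placed 7 higher in the IPs and 12 lower, and 8 did not pass, beside 28.8% higher and 28.0% lower over all joined genes, so that the count of higher genes was near that share. Its log2 fold changes had a median of -0.90, beside 0.67 over all joined genes and 0.10 over all genes and transcripts tested. The 4 genes are members of this list, and without them 5 were higher, 10 lower and 8 did not pass. Every family described next had members on both sides of the input, and since each holds few joined genes, all called by the study, its counts are to be read beside those shares.

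Among Slits and their receptors, 1 of 4 joined genes passed the test, ROBO1 itself. SLIT1 and SLIT2, secreted ligands, averaged 37.4 ± 8.01 and 149.5 ± 27.9 CPM in the IPs (SD, n = 3), against input levels of 11.3 and 62.4 CPM, and neither passed (adjusted p = 0.0810 and 0.0909, edgeR). SLIT3 was at 37.8 ± 11.6 CPM in the IPs (SD, n = 3), against 170 CPM in the input, just short of the threshold (adjusted p = 0.0516, edgeR). The values for SLIT1 and SLIT2 thus lay on the opposite side of the input from those for ROBO1 and SLIT3. The receptors ROBO2, ROBO3 and ROBO4 were not analysed here.

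Of the netrin group, 4 genes were joined, the receptors UNC5A and UNC5D and 2 proteins that bind netrin receptors, and 2 were higher and 2 lower (28.8% and 28.0% over all joined genes). DRAXIN, a secreted guidance protein that binds the netrin receptor DCC, was at 18.8 ± 2.59 CPM in the IPs (SD, n = 3), against 3.21 CPM in the input (log2 difference 2.55, adjusted p = 0.0466, edgeR), the same direction as UNC5A. UNC5D, of the same receptor family as UNC5A, ran the other way at 7.74 ± 0.855 CPM in the IPs (SD, n = 3), against 33.2 CPM in the input (-2.10, adjusted p = 0.0410, edgeR). FLRT3, a transmembrane protein that binds UNC5 receptors, was at 95.7 ± 4.42 CPM in the IPs (SD, n = 3), against 179 CPM in the input (-0.90, adjusted p = 0.0421, edgeR). GAPDH, with -0.84, had a change of similar size and did not pass (adjusted p = 0.0563, edgeR).

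EPHA3, an Eph receptor of the other class than EPHB3, was also lower, at 21.8 ± 1.18 CPM in the IPs (SD, n = 3), against 92.4 CPM in the input (log2 difference -2.08, adjusted p = 0.0234, edgeR). EFNB3, an ephrin-B ligand, was at 126 ± 27.1 CPM in the IPs (SD, n = 3), against 45.5 CPM in the input library and did not pass (adjusted p = 0.0898, edgeR). Both joined receptors of this family passed as lower, as did 28.0% of all joined genes, and the joined ligand had its 3 IP values above the input. With 3 of 22 listed genes joined, receptors and ligands of the family cannot be compared.

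The contactin group gave the widest span. CNTN1, the other contactin that was joined, was at 9.30, 14.2 and 6.98 CPM in IP 1, 2 and 3, against 130 CPM in the input (log2 difference -3.68, standard error 0.39, adjusted p = 0.0341, edgeR), the reverse of CNTN2. CHL1, an adhesion molecule of the L1 family, was at 19.1 ± 2.33 CPM in the IPs (SD, n = 3), against 3.39 CPM in the input (2.49, adjusted p = 0.0445, edgeR). ALCAM, an immunoglobulin-domain adhesion molecule, was at 69.2 ± 8.22 CPM in the IPs (SD, n = 3), against 432 CPM in the input (-2.64, adjusted p = 0.0205, edgeR).

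Of 6 joined semaphorin ligands and receptors, 4 were lower and 0 higher by edgeR (28.0% and 28.8% over all joined genes). SEMA5B, a transmembrane semaphorin named after its values were seen, was at 13.4 ± 1.07 CPM in the IPs (SD, n = 3), against 4.43 CPM in the input, and was the only one with a higher value (adjusted p = 0.0964, unadjusted p = 0.00828, edgeR). DESeq2 called all 13 list genes with a positive value, SEMA5B, SLIT1, SLIT2 and EFNB3 among them. SEMA3E and SEMA3C fell, with log2 fold changes of -2.07 and -1.70 (adjusted p = 0.0458 and 0.0260, edgeR), both secreted ligands. NRP1, a co-receptor for such ligands, had a log2 fold change of -1.73 and did not pass (adjusted p = 0.0582, edgeR). Of 6 joined intracellular proteins of the growth cone, 3 were higher, 1 was lower and 2 did not pass. DPYSL4, of the collapsin response mediator family, rose by 1.56 on the log2 scale (adjusted p = 0.0468, edgeR), its relative DPYSL3 had 1.24 (adjusted p = 0.0512, edgeR), and SRGAP2, a GTPase-activating protein that binds Robo receptors, fell by 1.49 (adjusted p = 0.0475, edgeR).

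**Figure D4:**
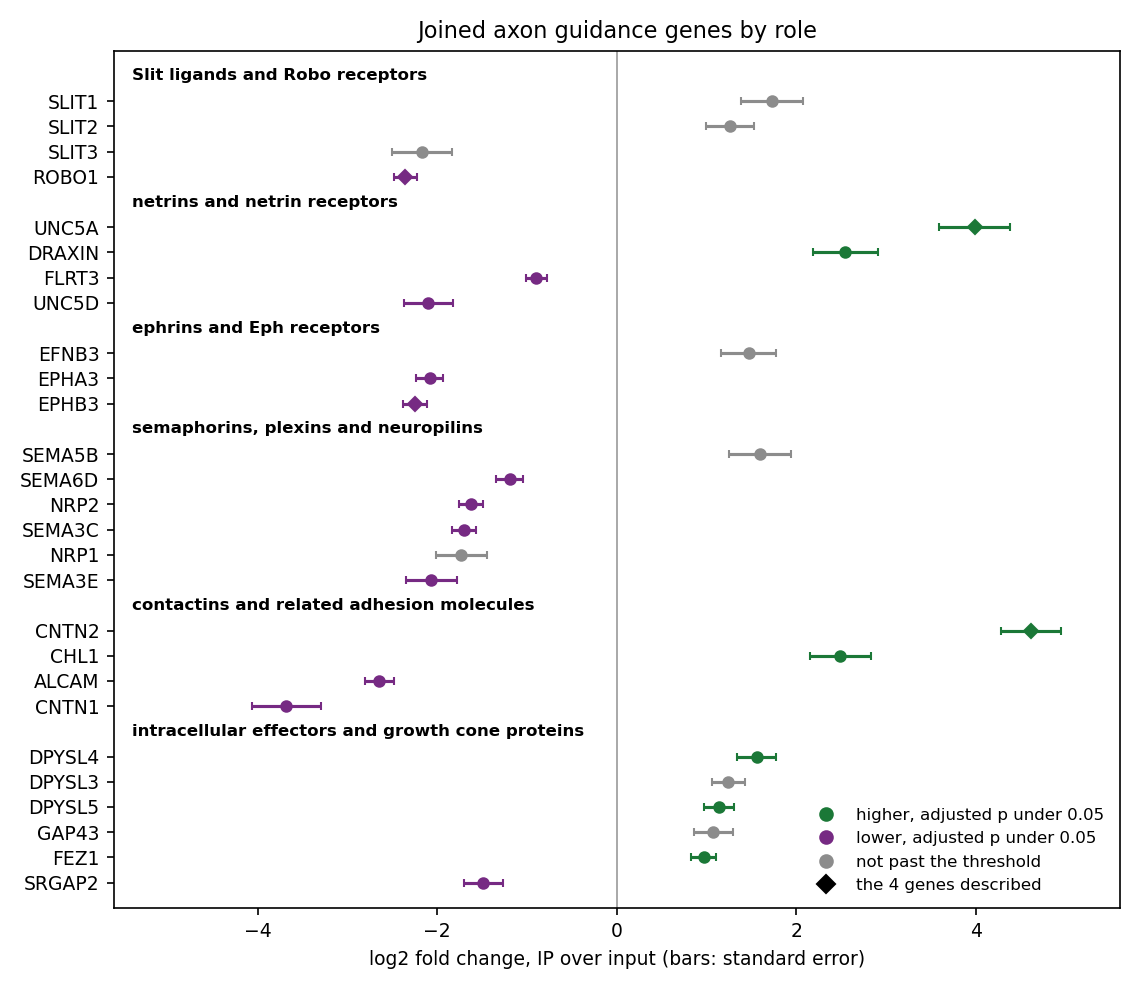
Log2 fold change of IP over input with its standard error for the 27 joined axon guidance genes, grouped by role, with diamonds for ROBO1, EPHB3, UNC5A and CNTN2. UNC5A and CNTN2 lie farthest to the right at 3.98 and 4.61, and CNTN1 lies farthest to the left at -3.68.

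Genes most like each of the 4 were sought among the 1737 other joined genes by the root mean square difference of mean-centred log2(CPM + 0.5) over the 4 libraries, a measure that rests mostly on the contrast of the IPs with the input. ROBO1 was nearest to COL1A2, a chain of type I collagen (difference 0.04), then EPHB3 (0.05) and MTRNR2L10 (0.06), a humanin-like gene that shares sequence with mitochondrial RNA, so that its reads are uncertain. EPHB3 was nearest to EMC1 (0.04), of the endoplasmic reticulum membrane complex, then COL1A2 (0.04) and ROBO1 (0.05), so that ROBO1 and EPHB3 were each among the other's 3 nearest. Among the 3 genes nearest to UNC5A were PRSS56, a serine protease (0.08), and RSPO3, an enhancer of WNT signalling (0.09). CNTN2 was nearest to CHRNB4, a nicotinic receptor subunit (0.08), SHD, an SH2-domain adaptor (0.10), and WNT4, a WNT ligand (0.13).

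Markers of cell groups moved with both pairs. Their counts are to be read beside the 28.8% higher and 28.0% lower over all joined genes, all of which the study had called. The 5 genes listed under granule cell progenitors and rhombic lip were ATOH1, BARHL1, NHLH1, HES6 and INSM1. How specific they are to these cells was not tested. All 5 were higher, and they summed to 1048 to 1467 CPM in the IPs, against 21.5 CPM in the input. HES6 made up most of this sum, at 1292, 965 and 873 CPM in IP 1, 2 and 3, against 17.8 CPM in the input. ATOH1 and BARHL1 made up little of it, with IP means of 31.8 and 6.92 CPM, against 0.173 and 0.148 CPM in the input. The 6 young neuron markers, all 6 higher, summed to 1571 to 1845 CPM in the IPs, against 484 CPM in the input, on the side of UNC5A and CNTN2. Of 11 vascular and mesenchymal markers, 6 were joined, 4 were lower and none was at 0, and they summed to 2558 to 2892 CPM in the IPs, against 11724 CPM in the input, on the side of ROBO1 and EPHB3. COL1A2 alone measured 1493, 1523 and 1366 CPM in IP 1, 2 and 3, against 7222 CPM in the input. The endothelial markers PECAM1, CDH5 and KDR were not analysed here. Of 6 neural stem and astroglial markers 2 were joined, SOX2 was higher and FABP7 did not pass. The part of these cell groups in the levels of the 4 genes was not tested.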

How the data were processed

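RNA of 3 IPs and 1 input was sequenced as single reads after SMART-Seq v4 and Nextera XT. The deposited values are the authors' estimated counts and TPM from Salmon 0.8.2 on hg19 UCSC transcripts, 69548 per library, without gene names. Genes were named by summing 1 to 20 neighbouring transcripts until the mean count (within 3%) and the log2 fold change (within 1e-05) equalled those of a gene in the 1998 rows of the study's DESeq2 1.20.0 table used here, all of them called by the study, which joined 1738 genes. That table's fold changes served for naming and were not used in the fits. Because naming required that match with this library as input, each joined gene has the study's direction by construction. Estimated counts were rounded, other transcripts were kept singly, and edgeR 4.0.16 in R 4.3.3 was run (TMM, default filter with minimum count 10, quasi-likelihood test, Benjamini-Hochberg, threshold 0.05). It was first run on simulated counts that varied far less than these libraries, whose common coefficient of variation was 0.944. That run therefore does not show how well the test performs here. DESeq2 1.42.0 and limma 3.58.1 were alternatives. The standard errors given with edgeR were derived from the test, as the absolute log2 fold change divided by the square root of its F statistic. CPM are TMM scaled, and TPM are the deposited values summed per gene. The rule for named genes took the 4 genes, their receptor and ligand families, up to 3 further genes per role by size of change, and the 3 most similar genes, of which 1 is not reported here. Members and lists were chosen with earlier results of these data known.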

Additional observations from a re-analysis of the deposited data

How the results depend on the processing

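The 4 genes kept their direction under every alternative except the labels' assignment of the input, which gave log2 fold changes of 1.15 for ROBO1, 1.09 for EPHB3, -0.96 for UNC5A and -0.84 for CNTN2, and -1.30 for the 5598-base transcript of ROBO1. limma-voom gave -2.36, -2.25, 3.96 and 4.59 for ROBO1, EPHB3, UNC5A and CNTN2, short of the threshold (adjusted p 0.0615 to 0.0847). Leaving out 1 IP gave -2.40 to -2.30 for ROBO1, -2.28 to -2.21 for EPHB3, 3.83 to 4.09 for UNC5A, 4.51 to 4.73 for CNTN2 and 2.57 to 3.09 for the 5598-base transcript, none past the threshold. For ROBO1 the transcript with the highest mean of estimated reads over all libraries, of 7494 bases, gave -7.16 when taken alone. Its standard error was 1.90 and it did not pass (adjusted p = 0.148, edgeR's quasi-likelihood test). It was picked through its 5253 input reads, so its direction followed from that choice. Of the list, 7 genes were higher and 12 lower by edgeR; DESeq2 gave 13 higher with or without a length offset, and edgeR without a filter gave 4. limma-voom, each IP left out (0 to 0) and the labels' assignment gave 0 in both directions. At an unadjusted p under 0.05, limma-voom and the fits without 1 IP each gave 13 higher and 14 lower, and the labels' assignment 0 and 0. The joined genes of the list had all been called by the study on these same libraries, so the unadjusted counts are no independent support. Over all genes and transcripts, edgeR called 1011 higher and 653 lower, DESeq2 5646 and 3866, edgeR with at least 50 counts in 2 libraries 1857 and 1159, and limma-voom 0 (3770 and 6363 unadjusted). With estimated counts in place of TPM the differences of IP mean and input in the log2 ratio of ROBO1 to UNC5A and to CNTN2 were -6.33 and -6.95, against -6.15 and -6.78 in TPM. The fits of the 5598-base transcript by DESeq2, by limma-voom, with the labels' assignment and without each IP were chosen after seeing the data. No paired analysis was possible because the input has 1 library. With 1 input, its own spread cannot be estimated, and UNC5A and CNTN2 rest there on 67 and 98 reads.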
